A study of Mus musculus with 4 samples.

Results

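The ephrins and their Eph receptors, and the semaphorins with their plexin and neuropilin receptors, were examined in mouse embryonic fibroblasts (MEFs) as a group of 53 genes out of 27395 gene names or transcript identifiers on the arrays. The genes were matched by their names, as every ephrin A and B, Eph receptor A and B, class 3 to class 7 semaphorin, plexin A to D and neuropilin with a non-control probe, which gave 92 probes. Cells of 4 groups were measured. Fibroblasts carrying the genotype label Lats2-/- (labelled KO) and fibroblasts carrying the label Lats2+/+ (labelled WT), all of the C57BL/6J strain, were each grown for 48 h to a subconfluent state (low density) or for 3 to 5 days (high density), so that time in culture and density cannot be told apart. The product of Lats2 is a Hippo pathway kinase, and this pathway responds to crowding of cells. RNA of both densities was hybridised together on each 2-colour array, and each genotype had 2 arrays with the dyes exchanged, replicate 1 with high density in Cy5 and replicate 2 with high density in Cy3. The labels do not say whether the 2 arrays of a genotype came from separate cultures, so the exchange was treated as a technical repeat. Each genotype and density thus counted as 1 sample (n = 1), and no test within a genotype was made. The paired values below are read as the error of labelling and hybridisation only. The sources used here do not give the age or number of the embryos or the part of Lats2 that was removed.

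Eph receptors are receptor tyrosine kinases that bind ephrins held in the membrane of a neighbouring cell, and the signal runs both into the receptor cell and back into the ephrin cell. Ephrins of the A group are attached to the membrane by a lipid anchor, and those of the B group cross it. Semaphorins signal through plexins, which act on small GTPases, and the secreted class 3 semaphorins mostly need a neuropilin as the binding partner. Both families are well known from axon guidance and also steer repulsion, adhesion and migration of fibroblasts on contact.

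Lats2 itself went against the label. Of its 4 probes, 3 gave a higher value in the cells labelled KO, with log2 differences of 1.19, 1.39 and 1.38 at low density and of 0.91, 1.34 and 1.49 at high density. The remaining probe was lower, by -0.63 and -1.26 on the log2 scale. Whether any probe lies in the removed part is not known, so the genotypes are called labelled KO and labelled WT throughout. The study's own check of the knockout in these fibroblasts was a western blot of the protein, which was not analysed here. The 2 WT arrays shared a slide and the KO arrays lay on other slides scanned at other times, so slide, scan and genotype cannot be told apart. All 8 fibroblast markers were well above background in all 8 channels, among them the collagens Col1a1 and Col1a2. In KO 1 was higher and 2 lower by at least 2-fold at low density (37.5%, beside 15.7% of all genes). At high density 3 were higher and 1 lower (50%, beside 14.6%). Pdgfra was higher in KO by 4.46 and 3.10 (log2), Fn1 stood at -1.30 and 1.33, and at high density Thy1 was at 1.39 and S100a4 at -1.36. The density response differed in 6 of 8 (75%, beside 9.59%), 4 higher and 2 lower in KO. Of the markers of other cells, 5 of 7 endothelial, 3 of 4 epithelial, 2 of 3 muscle, 3 of 6 macrophage and 1 of 5 neural and glial genes were well above background in no channel, the endothelial Pecam1 and Cdh5 and the macrophage Adgre1, Ptprc and Itgam included. The summed macrophage marker intensity, in which Lyz2 moved, was 478 to 498 in WT and 1536 to 1851 in KO at low density, and 561 to 562 and 4379 to 5490 at high density. The summed neural and glial intensity, in which S100b moved, lay between 1238 and 1420 in 3 of the groups and at 3284 to 3402 in WT at high density. The part of these shifts in the results below was not tested.

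Of the 53 genes, 34 were well above background in all 8 channels. Epha6, Epha8, Epha10, Ephb1 and Plxnb3 were well above background in no channel, and with Sema4b and Sema6a, each seen in 2 channels, they entered no comparison. The other 46 genes were measured in at least 1 comparison, and 39 of them in all 5. A gene was called changed when the mean log2 ratio of its brightest probe was at least 1 in size, which is 2-fold, and neither array opposed its sign. By that rule 28 genes changed in at least 1 comparison and 18 were measured without a change. The share of all genes changed in at least 1 comparison was not counted, so shares are given for each comparison below.

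The first question was which of these genes moved with cell density. In cells labelled WT, 15 of the 43 genes measured changed (34.9%), beside 15.5% of all 14787 genes measured. The changes were 10 increases (23.3%, beside 9.43% of all genes) and 5 decreases (11.6%, beside 6.12%). In cells labelled KO, 12 of 43 genes changed (27.9%), beside 11.1% of 15335, with 10 increases (23.3%, beside 7.17%) and 2 decreases (4.65%, beside 3.89%). The median log2 ratio of high over low density was 0.46 for the group in WT and 0.61 in KO, beside 0.06 over all genes in each. The median size of change was 0.80 and 0.70, beside 0.39 and 0.35. Over these genes, single arrays departed from their 2-array mean with an SD of 0.0926 in WT and 0.129 in KO.

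**Figure D1:**
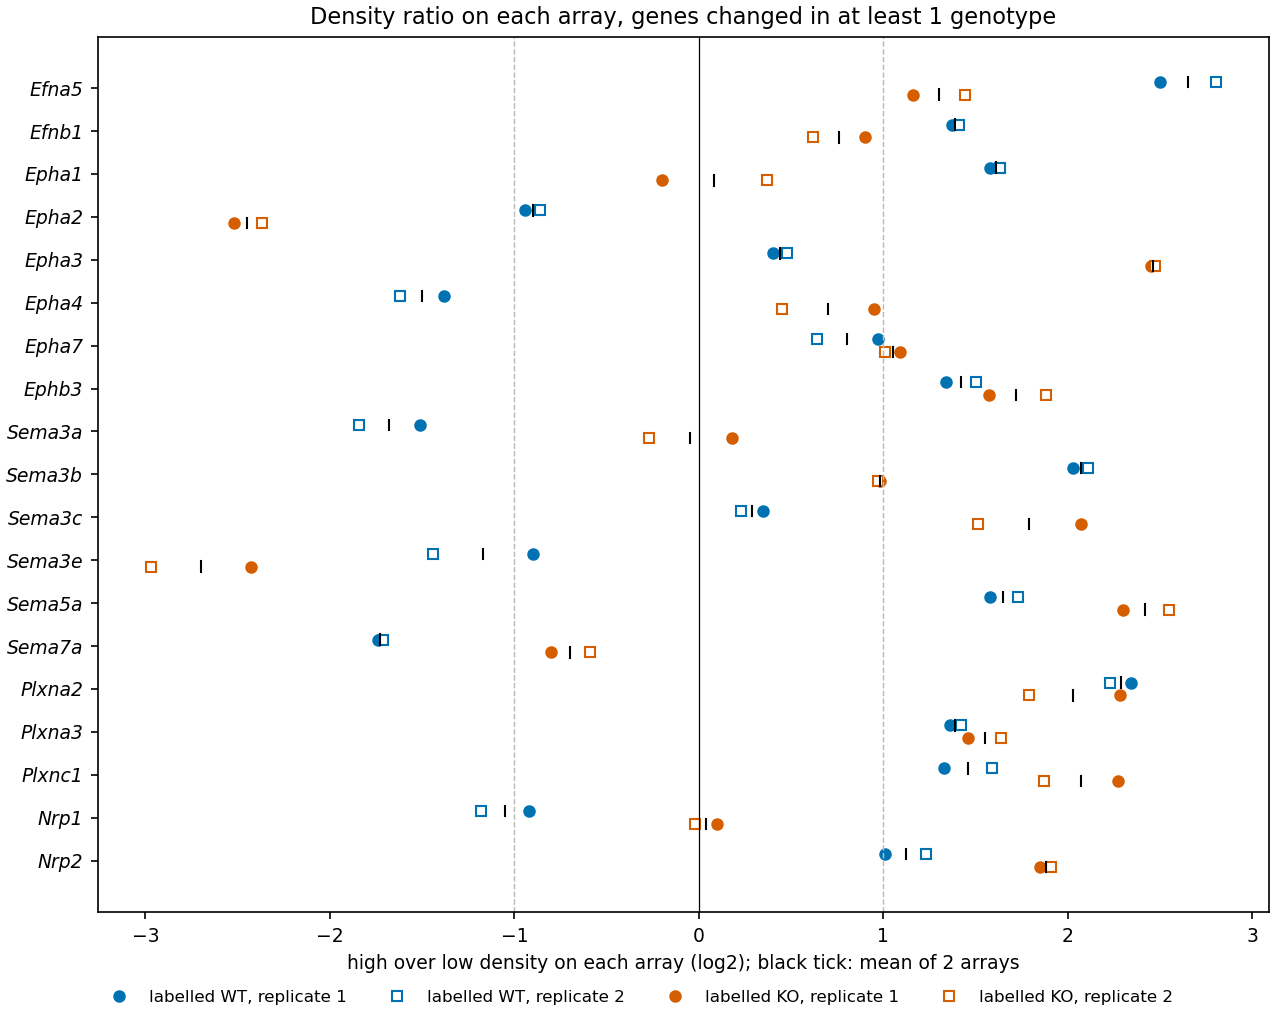
Log2 ratio of high over low density on each array (x axis) for the 19 genes that changed in at least 1 genotype (y axis), in order of role. Circles are replicate 1, open squares replicate 2, black ticks the mean of the 2 arrays, and dashed lines mark 2-fold. WT is blue and KO orange, and the distance within a pair is read as the dye exchange only. Epha4 lies below 0 on both WT arrays and above 0 on both KO arrays, and Plxna2 lies beyond 2-fold on all 4 arrays.

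Among the ephrin ligands, Efna5 rose with density in both genotypes. Its log2 intensity was 11.41 and 11.40 at low density and 13.91 and 14.20 at high density in WT, and 11.62 and 11.52 against 12.79 and 12.96 in KO. The density ratio was 2.65 ± 0.15 in WT and 1.30 ± 0.14 in KO (log2, mean of the 2 arrays and the distance of either array from it, as for every ± below). A second Efna5 probe rose by only 0.72 and 0.18. Efnb1, a ligand of the B group, rose in WT with log2 ratios of 1.37 and 1.41 on the 2 arrays, and its ratios in KO were 0.90 and 0.62. Efnb2, best known from the boundary between arteries and veins, moved in opposite directions, at 0.80 and 0.65 in WT and at -0.66 and -0.96 in KO, without reaching 2-fold in either. Efna1 was at 0.80 and 0.97 in WT and was not measured for density in KO. The remaining ligands, Efna2, Efna3, Efna4 and Efnb3, lay between -0.10 and 0.71 in both genotypes.

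Of the EphA receptors, Epha1, Epha2, Epha3, Epha4 and Epha7 changed in 1 genotype each. Epha2, the EphA receptor most studied in epithelia and tumours, had a log2 intensity of 12.08 and 11.94 at low and 11.14 and 11.09 at high density in WT. In KO the values were 11.11 and 11.09 at low and 8.59 and 8.72 at high density, the lowest of the 4 groups. The density ratio was -0.90 ± 0.04 in WT and -2.45 ± 0.08 in KO, a 5.46-fold decrease. Epha3 showed the opposite sign. It was not well above background at low density in WT (6.20 and 6.20), stood at 6.60 and 6.68 at high density, and in KO went from 6.67 and 6.32 to 9.12 and 8.79, a log2 ratio of 2.46 ± 0.01. Its other 2 probes rose by 0.98 and 0.93 in KO. The KO ratio of the brightest Epha3 probe was 3.45 without the normexp offset and 3.99 with the scanner's processed signals, and 1.46 with all probes averaged. Epha4, which binds ephrins of both groups, fell in WT with ratios of -1.38 and -1.62 and was at 0.95 and 0.45 in KO. Epha1 rose in WT at 1.58 and 1.63, whereas its KO arrays disagreed in sign at -0.20 and 0.37. Epha7 rose in KO at 1.09 and 1.01 and stood just under the limit in WT at 0.97 and 0.64. Epha5 was well above background in WT only at high density, which gave at least a 1.6-fold increase.

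All 4 measured EphB receptors had positive ratios in both genotypes, and Ephb3 alone among them changed. Its log2 intensity was 10.54 and 10.43 at low and 11.88 and 11.93 at high density in WT, and 11.14 and 10.87 against 12.70 and 12.75 in KO, giving ratios of 1.42 ± 0.08 and 1.72 ± 0.16. Ephb2, Ephb4 and Ephb6 lay between 0.20 and 0.92.

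The class 3 semaphorins, the secreted ones, moved in both directions. Sema3e, which binds the plexin Plxnd1 without a neuropilin, fell in both genotypes, from 10.34 and 10.69 to 9.43 and 9.25 in WT and from 10.99 and 11.49 to 8.56 and 8.51 in KO. The ratio was -1.17 ± 0.27 in WT and -2.70 ± 0.27 in KO. The first WT array alone gave -0.90, under the limit, and the other probes gave -0.78 and -0.85 in WT and -1.59 and -1.18 in KO. Sema3a, the founding repellent that acts through Nrp1, fell in WT with ratios of -1.51 and -1.84 and had 0.18 and -0.27 in KO, where a second probe gave 0.77. Sema3b rose in WT at 2.03 and 2.11 and reached 0.98 and 0.97 in KO, just under the limit. Sema3c, which can signal through either neuropilin, was not well above background at low density in WT, where its increase was at least 1.2-fold, and rose in KO from 7.80 and 7.92 to 9.87 and 9.43. Its KO ratio was 1.79 ± 0.28. Sema3f and Sema3g lay between 0.30 and 0.88 in both genotypes, although a second Sema3f probe rose by 1.23 in KO, and Sema3d was measured for density only in KO, where it was well above background at high density and rose by at least 1.45-fold.

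Among the membrane-bound semaphorins, Sema5a, which carries thrombospondin repeats, rose in both genotypes. The ratios were 1.58 and 1.73 in WT and 2.30 and 2.55 in KO. A second Sema5a probe gave only 0.22 and 0.39. Sema7a, anchored by a lipid and a ligand of Plxnc1, fell in WT at -1.74 and -1.71 and had -0.80 and -0.59 in KO. No class 4 semaphorin changed with density. Sema4f came nearest with -0.85 and -1.09 in WT, while both of its KO arrays were above 0 at 0.81 and 0.47. The other measured members of classes 4, 5 and 6 lay between -0.29 and 0.92 by their brightest probes, and the other 2 Sema5b probes gave -0.76 and -0.85 in KO.

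Among the receptors, 3 of the 8 measured plexins rose in both genotypes and none fell. Plxna2, a co-receptor of class 3 semaphorins, had log2 intensities of 8.64 and 8.78 at low and 10.98 and 11.01 at high density in WT, and 10.22 and 10.61 against 12.49 and 12.39 in KO. The ratio was 2.29 ± 0.06 in WT and 2.03 ± 0.24 in KO, and its other probes gave 1.22 and 2.01 in WT. Plxna3, of the same group, rose by 1.39 ± 0.03 and 1.55 ± 0.09, although its second probe gave 0.28 and 0.16. Plxnc1, the receptor of Sema7a, was not well above background at low density in WT, where the increase was at least 2.6-fold, and rose by 2.07 ± 0.20 in KO. A second Plxnc1 probe gave 0.35 in KO. Plxna1, Plxna4, Plxnb1, Plxnb2 and Plxnd1 lay between -0.76 and 0.82.

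The neuropilins parted. Nrp2, the binding partner preferred by Sema3f, rose in both genotypes, with ratios of 1.01 and 1.23 in WT and of 1.85 and 1.91 in KO. After median centring its WT ratio was 0.87, under the limit. Nrp1, the binding partner of Sema3a and a co-receptor of vascular growth factor, fell in WT at -0.92 and -1.18 and was at 0.10 and -0.02 in KO. The other Nrp1 probes gave -1.40 and -0.02 in WT.

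Taking the genotypes side by side, 7 of the 40 genes measured for density in both rose in both (Efna5, Ephb3, Nrp2, Plxna2, Plxna3, Plxnc1 and Sema5a), beside 3.98% of 14088 genes. Sema3e alone fell in both, beside 1.79%. After median centring Nrp2 in WT (0.87) and Efna5 in KO lay under the limit. With all probes averaged Efna5 in KO (0.74), Plxna3 in WT and KO (0.84 and 0.86), Sema5a in WT (0.94) and Sema3e in WT (-0.93) did so. The mean of the WT and KO ratios was set against 0 with limma, with 1 ratio per genotype (n = 2), so that the spread also holds any difference between genotypes. No gene of the group and none of the 14088 genes passed an adjusted p of 0.05 (0% of genes), while 22 of 40 and 4108 of 14088 (29.2%) lay under 0.05 without adjustment. Plxna2 came nearest, with a mean log2 ratio of 2.16, an SE of 0.187 and a limma adjusted p of 0.0546, and was higher on 4 of 4 arrays. Ephb3, Plxna3 and Sema5a followed with limma adjusted p-values of 0.0619, 0.0619 and 0.0622. Plxnc1 had a limma adjusted p of 0.0636, but its WT ratio is a lower bound and ran from 1.33 to 4.90 over the alternatives. Its p-value is therefore not read as exact. With the filter that required every channel to be well above background, Plxna2 (limma adjusted p of 0.0407), Ephb3, Plxna3 and Sema5a (0.0476 each) passed, beside 2.08% of 12870 genes, whereas none of the group passed with processed signals, with no filter on dim probes or with all probes averaged.

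**Figure D2:**
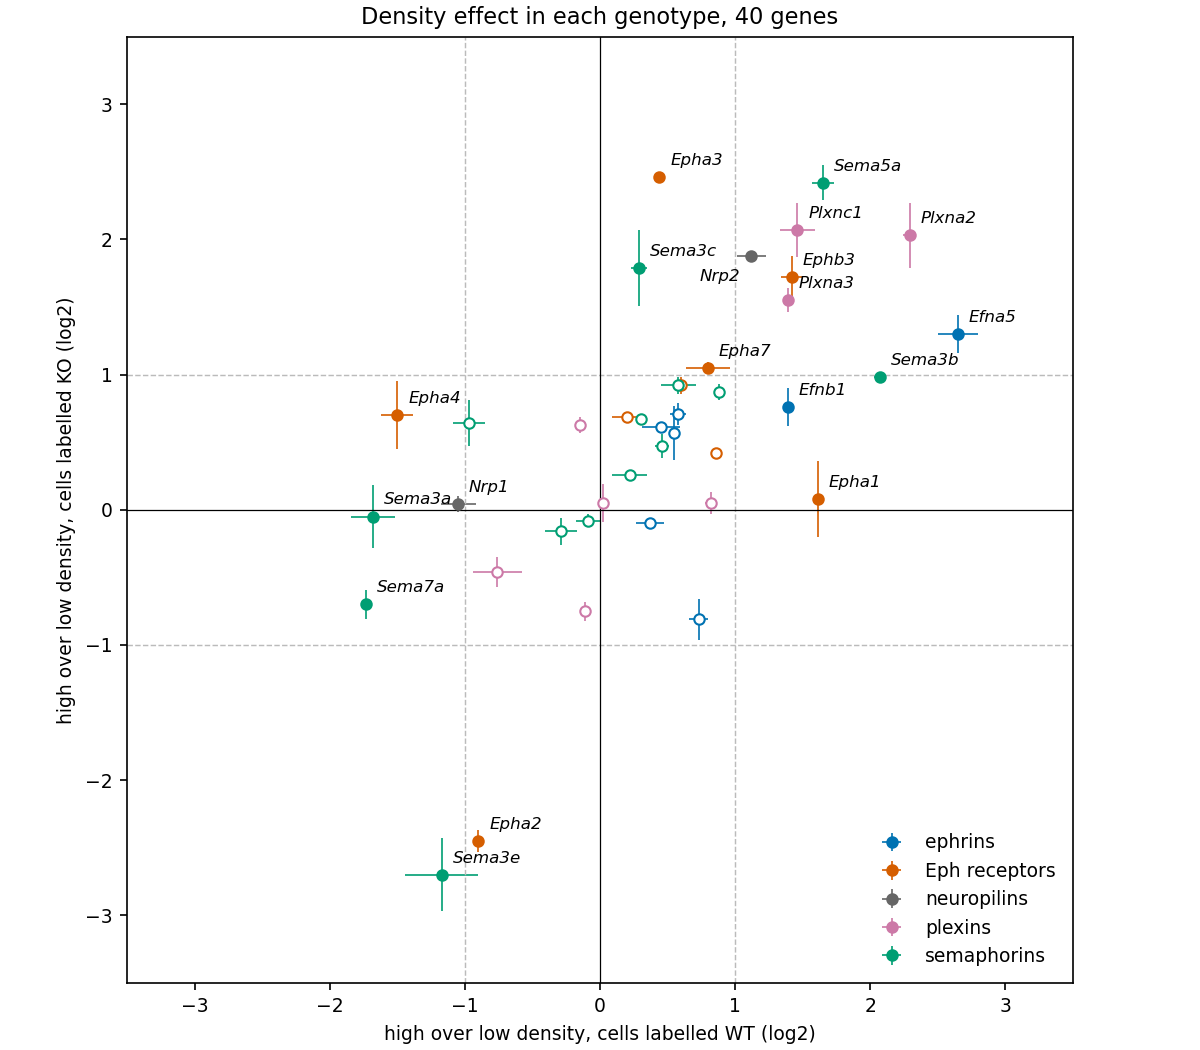
Log2 ratio of high over low density in cells labelled WT (x axis) against cells labelled KO (y axis) for the 40 genes measured in both. Points are means of 2 arrays, bars reach to the value of either array, filled points changed in at least 1 genotype and dashed lines mark 2-fold. The 7 genes at the upper right rose in both genotypes, Sema3e at the lower left fell in both, and Epha4 lies below 0 in WT and above 0 in KO.

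The sequence before the start of these genes was read from RefSeq (GRCm38.p6), which held a start for 47 of the 53 genes and 61 starts in all. The 250 bases before the start had a median GC content of 64.4% and 16 CpG dinucleotides, beside 52.4% and 6 over all 32851 starts. For the 8 genes that changed alike in both genotypes the GC content ran from 48% to 74.8% and the CpG count from 7 to 32. Efna5 and Plxna2, which rose in both genotypes, and Sema3e, which fell in both, are shown with CG in capitals, and each stretch ends at the base before the start.
Efna5, chr17:62881318-62881567, minus strand: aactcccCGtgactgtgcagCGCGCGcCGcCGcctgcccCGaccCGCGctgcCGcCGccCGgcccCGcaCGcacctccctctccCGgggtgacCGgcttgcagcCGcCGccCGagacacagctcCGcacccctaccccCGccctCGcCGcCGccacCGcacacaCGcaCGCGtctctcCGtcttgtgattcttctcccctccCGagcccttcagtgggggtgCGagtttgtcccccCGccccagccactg
Plxna2, chr1:194619579-194619828, plus strand: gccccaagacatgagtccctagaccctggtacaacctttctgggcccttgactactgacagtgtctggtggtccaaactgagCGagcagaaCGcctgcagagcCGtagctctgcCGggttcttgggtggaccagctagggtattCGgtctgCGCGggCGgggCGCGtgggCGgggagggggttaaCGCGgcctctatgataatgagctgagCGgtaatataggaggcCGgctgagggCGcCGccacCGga
Sema3e, chr5:14025026-14025275, plus strand: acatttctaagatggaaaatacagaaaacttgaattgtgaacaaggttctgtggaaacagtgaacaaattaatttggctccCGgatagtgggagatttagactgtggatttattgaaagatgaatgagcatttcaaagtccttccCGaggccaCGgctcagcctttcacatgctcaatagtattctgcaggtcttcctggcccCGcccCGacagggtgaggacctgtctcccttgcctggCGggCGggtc

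The core of the motif bound by TEAD factors, the DNA-binding partners of the Hippo effectors YAP and TAZ, was searched as GGAATG on both strands. It was held by 12.6% of all starts and by 7 of the 61 starts of the group (11.5%). The motif of the AP-1 factors, TGANTCA on both strands, was held by 6.75% of all starts and by 3 of the 61 (4.92%). None of the 8 starts of the genes that changed alike held either motif. The TEAD core lay before Efnb2, Epha1, Epha2, Epha3, Plxnb1 and Plxnd1, each of which changed in at least 1 comparison, and before Sema4a, which did not. Of all 53 genes 28 changed in at least 1 comparison, and a link between motif and change was not tested. The matches of the 6 genes are shown in capitals with up to 20 bases on each side, and a match describes letters and no binding.
Efnb2, chr8:8661322-8661367, minus strand: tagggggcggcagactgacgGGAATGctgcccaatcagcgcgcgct
Epha1, chr6:42373404-42373449, minus strand: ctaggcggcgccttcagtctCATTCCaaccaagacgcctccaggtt
Epha2, chr4:141300971-141301003, plus strand: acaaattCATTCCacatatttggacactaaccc
Epha2, chr4:141301145-141301190, plus strand: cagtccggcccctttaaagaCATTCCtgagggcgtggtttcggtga
Epha3, chr16:63864394-63864425, minus strand: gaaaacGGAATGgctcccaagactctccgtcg
Plxnb1, chr9:109095268-109095313, plus strand: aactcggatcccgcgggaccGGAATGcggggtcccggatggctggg
Plxnd1, chr6:115995153-115995198, minus strand: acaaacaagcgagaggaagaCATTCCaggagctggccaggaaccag

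The second question was whether the density response differed between the genotypes. The KO ratio minus the WT ratio reached 2-fold in 13 of 40 genes (32.5%), beside 9.59% of 14088, with 7 higher (17.5%, beside 4.59%) and 6 lower (15%, beside 5%). The median difference was 0.14, beside 0.02 over all genes. Epha4 differed by 2.20 (2.33 and 2.07 within the dye orientations), Epha3 by 2.02, Sema3a by 1.63, Sema4f by 1.61, Sema3c by 1.49, Nrp1 by 1.09 and Sema7a by 1.03, all higher in KO. As the WT ratios of Epha3 and Sema3c are lower bounds, their differences are at most 2.08 and 1.52 and may lie under the limit. Among genes well above background in every channel 11 of 34 reached it (32.4%), beside 9.18% of 12870, without these 2. With the scanner's processed signals the differences were 1.24 for Epha3, 0.38 for Sema3c, under the limit, and 3.37 for Sema4f. The other Nrp1 probes gave 1.13 and -0.30. Epha2 differed by -1.55, Efnb2 by -1.53, Sema3e by -1.53, Epha1 by -1.52, Efna5 by -1.35 and Sema3b by -1.09. Second probes gave -0.62 for Efnb2 and -0.54 for Efna5. For Sema3e the other 2 measured probes gave -0.81 and -0.34. The plexins were without a call, with differences between -0.77 for Plxnd1 and 0.78 for Plxnb1. These differences equal the genotype difference at high density minus that at low density and are no separate evidence.

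The third question was how the genotypes differed at each density. At low density 13 of 42 genes differed at least 2-fold (31%), beside 15.7% of 15161, with 4 higher (9.52%, beside 7.35%) and 9 lower (21.4%, beside 8.4%) in the cells labelled KO. At high density 16 of 46 differed (34.8%), beside 14.6% of 15524, with 8 higher (17.4%, beside 6.78%) and 8 lower (17.4%, beside 7.83%). The medians were -0.19 and -0.24, beside 0.03 and 0.02 over all genes, and without scaling between arrays they became 0.03 and 0.00 while the median of all genes moved to 0.27 at both densities. Efna1, Nrp2, Plxna2, Plxnd1, Sema3c, Sema3f and Sema7a differed at both densities, which is 7 of 42, beside 8.07% of 14651 genes.

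Semaphorins differed between genotypes in both directions. Sema3f, a repellent acting through Nrp2, had log2 intensities of 10.29 and 10.43 at low and 10.57 and 10.75 at high density in WT, and of 7.35 and 7.20 and of 8.01 and 7.89 in KO. It was lower in KO by -3.08 ± 0.15 and -2.71 ± 0.15, which is 8.46-fold and 6.55-fold. Sema3c went the other way, higher in KO by at least 3.08-fold at low density, where the WT cells were not well above background, and by 3.14 ± 0.11 (8.82-fold) at high density. The high-density value was 4.23 without the normexp offset and 4.61 with the scanner's processed signals. Sema7a was lower in KO by -2.09 ± 0.05 and -1.06 ± 0.15. Sema3a was higher in KO at high density at 1.99 ± 0.09 and stood at 0.36 at low density, and its other probes gave 2.26 and 0.36 at high density. Sema4c, a ligand of Plxnb2, Sema4f and Sema5a were lower in KO at low density by -1.21, -1.80 and -1.07, and stood at -0.88, -0.19 and -0.30 at high density. A second Sema4c probe gave -0.30 at low density. For Sema3e a second probe disagreed at low density, at -0.81 beside 0.72 for the brightest, and gave -1.62 beside -0.81 at high density, past the limit. For Sema5b the brightest probe gave 0.47 at low density, and the other 2 probes gave 1.06 and 1.13, past the limit.

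**Figure D3:**
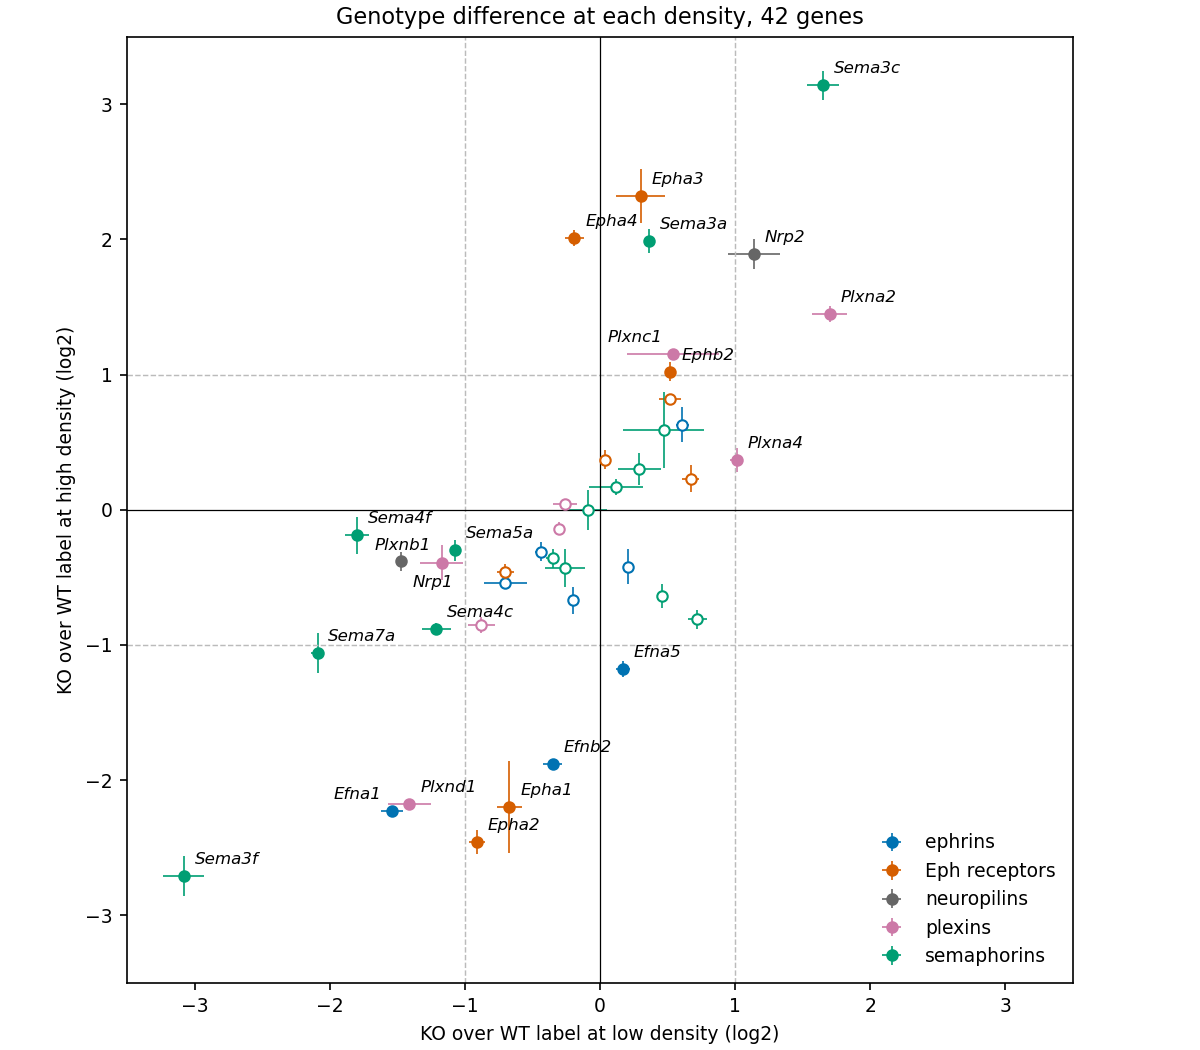
Log2 ratio of cells labelled KO over cells labelled WT at low density (x axis) and at high density (y axis) for the 42 genes measured at both. Points are means over the 2 dyes, bars reach to the value in either dye, filled points differed at least 2-fold at 1 density or more, and dashed lines mark 2-fold. Sema3c lies highest and Sema3f farthest to the lower left, while Epha3, Epha4 and Sema3a pass 2-fold on the y axis and not on the x axis.

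Among the ligands, Efna1 was lower in KO at both densities. The KO cells were not well above background at low density, which gave at least a 2.81-fold difference, and at high density 1 of the 2 KO arrays measured it, with a difference of -2.23 that became -3.71 without the normexp offset and -4.58 with the scanner's processed signals. Efna5 and Efnb2 reached 2-fold at high density, by -1.18 ± 0.06 and -1.88 ± 0.01, where second probes gave -0.50 and -0.51, and stood at 0.17 and -0.35 at low density. Of the EphA receptors, 4 reached 2-fold at high density, with Epha3 and Epha4 higher in KO by 2.32 ± 0.21 and 2.01 ± 0.06, and Epha1 and Epha2 lower by -2.20 ± 0.34 and -2.46 ± 0.09. At low density Epha1 and Epha2 were lower as well in both dyes, at -0.67 and -0.91, under the limit. The other Epha3 probes gave 1.22 and 1.15. At high density Epha3 was at 3.15 and Epha1 at -2.94 without the offset, and at 3.36 and -3.17 with processed signals. Ephb2 was higher at high density by 1.02 ± 0.07, close to the limit, and a second probe gave 0.22.

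Of the receptors for semaphorins, Nrp2 was higher in KO by 1.14 ± 0.20 at low and 1.89 ± 0.11 at high density, and Plxna2 by 1.70 ± 0.13 and 1.45 ± 0.07. Plxnd1, the receptor of Sema3e known for its part in vessel patterning, was lower by -1.41 ± 0.15 and -2.18 ± 0.04. Its values were -2.03 and -2.92 without the normexp offset and -2.45 and -3.22 with the scanner's processed signals. Nrp1 was lower at low density by -1.47, with -1.19 and -0.58 by its other probes, and stood at -0.38 at high density. Plxnb1, a receptor of Sema4d, was lower at low density by -1.17, where 1 of the 2 KO arrays measured it. The value was -2.25 without the offset and -3.36 with processed signals, and a second probe gave -0.88. Plxna4 was higher at low density by 1.01 ± 0.05, and Plxnc1 at high density by 1.15 ± 0.01, but second probes gave 0.14 and 0.29. Averaged over all probes the values were 0.57 and 0.72, under the limit.

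**Figure D4:**
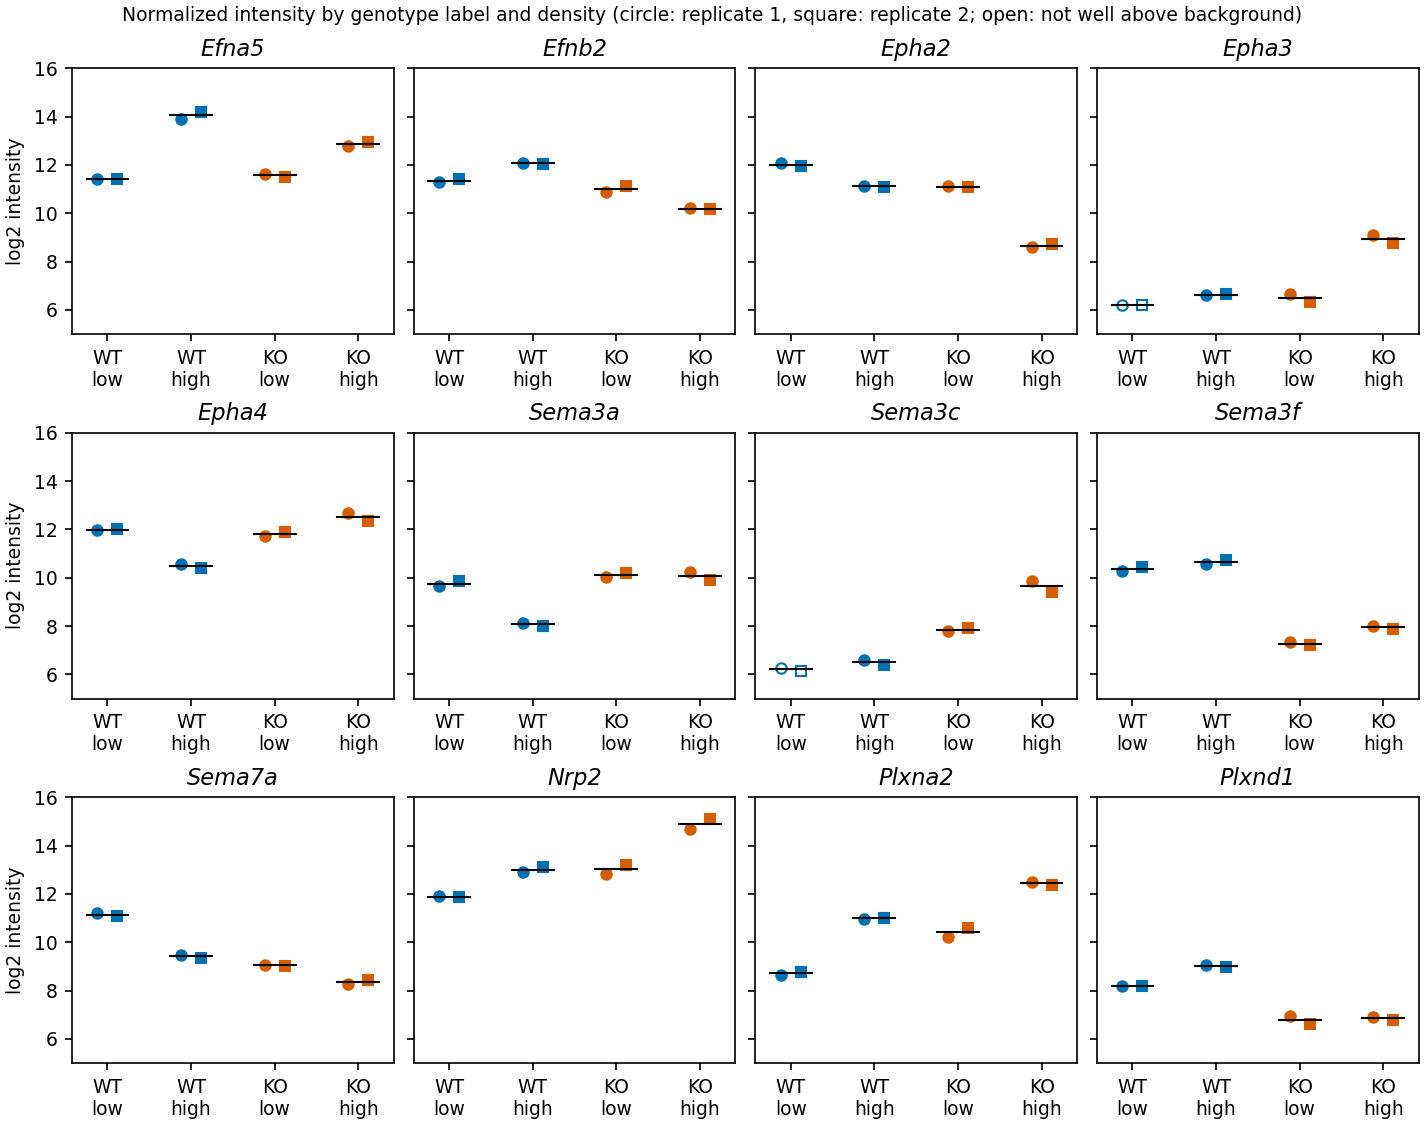
Normalized log2 intensity (y axis) of 12 genes in each genotype label and density (x axis), WT in blue and KO in orange. Circles are replicate 1, squares replicate 2, open symbols not well above background and black lines the mean of the 2 arrays. Sema3f and Plxnd1 are lower in KO at both densities, and Epha2 is lowest in KO at high density.

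Genes seen on only 1 side of a comparison without reaching 2-fold gave 10 bounds in 7 genes. In WT these were at least 1.45-fold for Efna2, 1.3-fold for Epha3, 1.6-fold for Epha5, 1.2-fold for Sema3c and 1.27-fold for Sema4g, each higher at high density. In KO, Sema3d was higher at high density by at least 1.45-fold. Between genotypes, KO was higher by at least 1.5-fold for Efna2, 1.18-fold for Epha3 and 1.37-fold for Plxnc1 at low density, and by 1.34-fold for Sema3d at high density.

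Genes that relay these signals were taken from lists of known partners. The lists were chosen with earlier results of these data known, so their shares are descriptive only. Of 29 partners of Eph signalling, such as adaptors and exchange factors for small GTPases, 3 of 26 measured changed in WT (2 higher, 1 lower), which is 11.5% beside 15.5% of all genes, and 0 of 27 in KO, beside 11.1%. At each density 5 of 28 differed between genotypes (2 higher, 3 lower), which is 17.9% beside 15.7% at low and 14.6% at high density. Vav3, an exchange factor recruited by Eph receptors, rose with density in WT by 1.90 and stood at 0.39 in KO. Kalrn, an exchange factor acting below EphB receptors, fell by -1.27 in WT and was lower in KO at low density by -2.21. Nck2, an adaptor, rose by 1.08 in WT. Ngef, the exchange factor ephexin that binds Epha4, was lower in KO by -1.95 and -1.58 at low and high density, and Tiam1 by -1.32 at low density. Mllt4 (afadin) and Sipa1l1 were higher in KO by 1.94 and 1.28 at low density and by 1.91 and 1.72 at high density.

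Of 39 partners of semaphorins and plexins, 6 of 32 measured changed with density in each genotype (2 higher, 4 lower), which is 18.8% beside 15.5% of all genes in WT and 11.1% in KO. Between genotypes 8 of 32 differed at low density (5 higher, 3 lower), 25% beside 15.7%, and 10 of 32 at high density (6 higher, 4 lower), 31.2% beside 14.6%. Rnd1, a small GTPase that binds plexins, fell at high density, with log2 ratios of -2.50 (WT) and -2.13 (KO), as did Mical2, a flavoprotein that oxidises actin, at -1.95 and -2.50. Rras2 was at -1.56 and -1.37, and the kinase Rock2 at -1.05 and -1.21. Dpysl3, a collapsin response mediator, rose with density in KO by 1.32 and was higher in KO at high density by 2.66. Farp1 differed in its density response by 1.18, Farp2 was higher in KO by 1.05 and 1.61 at low and high density, and Mical1 was lower in KO at low density by -1.48.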

How the data were processed

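Agilent Whole Mouse Genome arrays of 2 colours, 4 in all, were deposited as scanner output. Per the file headers and labels, the authors extracted feature intensity with Agilent Feature Extraction 10.5.1.1 and deposited a table of log10 ratios as well, which equals the scanner log ratio with the sign of the exchanged arrays turned; other columns of the scanner files hold annotation and quality flags. Each array held 43379 features, of which 52.8% to 67.7% were well above background by the scanner's own flag, 107 to 224 were flagged and 0 saturated; the number of arrays limits the precision.

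Mean signals were corrected with limma 3.58.1 in R 4.3.3 (normexp, offset 50, loess within arrays, Aquantile between arrays), features of a probe were averaged, and each ratio was signed so that a positive value means higher at high density. A gene was represented by its brightest unflagged probe. A density comparison needed both arrays well above background at 1 density or more, and a genotype comparison both dyes in 1 genotype or more, compared within dye. Bounds set the brighter group against the higher of the dim probe's own level and the lowest level of any probe well above background. The limma fit was adjusted by Benjamini-Hochberg over all genes, and the scripts were tested on simulated data. The symbols of all 53 genes were current in RefSeq (GRCm38.p6). The named genes were all those changed in at least 1 comparison, every gene accounted for, with up to 8 partners per list. The members and lists were chosen with earlier results of these data known. A 1.4-fold limit, other background corrections, centring, filters, probe averages, the deposited ratios and each array left out were tried as alternatives.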

Additional observations from a re-analysis of the deposited data

Results flagged for a closer look

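In 5 of the 40 genes measured in both genotypes, both WT arrays moved one way with density and both KO arrays the other, by their brightest probes. The share of all 14088 genes that did so was not counted. The difference of KO minus WT on the log2 scale was 2.20 for Epha4 (-1.50 in WT, 0.70 in KO), 1.61 for Sema4f (-0.97 and 0.64), -1.53 for Efnb2 (0.73 and -0.81), 0.78 for Plxnb1 (-0.15 and 0.63) and -0.47 for Efna3 (0.37 and -0.10). A second probe of Epha4 gave -0.01 in KO, with the arrays on either side of 0, and a second probe of Efnb2 gave 0.07 in WT and -0.56 in KO. The KO value of Efna3 lies within the SD of 0.129 by which single KO arrays departed from their mean. With 1 sample per genotype and density the difference was not tested.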

How the results depend on the processing

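The 69 called values of single genes kept their sign in all 669 recomputed values, 449 of them within 1 SD of the dye exchange. In WT the count for density went from 15 to 23 without the normexp offset and to 25 with the scanner's processed signals or the deposited ratios, and in KO from 12 to 21 and 22; the counts over all genes rose as well, from 2299 to 3404 and 3932 in WT and from 1696 to 2666 and 3203 in KO. At low density the genotype count went from 13 to 22 with the processed signals, with 9 higher and 13 lower, and over all genes from 2387 to 4171. At the 1.4-fold limit the counts were 29 for density in each genotype, 21 for the difference, and 24 and 27 for genotype at low and high density, which is 67.4%, 67.4%, 52.5%, 57.1% and 58.7% of the group beside 41.2%, 36.8%, 31.5%, 42.7% and 39.5% of all genes. Leaving out 1 array gave 13 to 16 for density in WT, 12 in KO, 12 to 13 for the difference, and 11 to 13 and 15 for genotype at low and high density. Median centring moved the median of all genes from 0.06 to -0.05 in WT and -0.08 in KO, and the share of increases among all calls from 60.6% to 47% and from 64.8% to 42.7%; in the group the WT split became 9 higher and 7 lower. Without scaling between arrays the share of increases over all genes went from 46.7% to 69% at low and from 46.4% to 66.5% at high density, the group split became 4 higher and 6 lower at low and 9 higher and 6 lower at high density, and the group median at low density went from -0.19 to 0.03.

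In the limma fit of the shared density effect, 1 gene of the group passed after median centring (1.12% of all genes), 1 without the offset (0.568%), 4 of 34 when every channel had to be well above background (2.08% of all genes), and 0 to 1 with 1 array left out (1 without WT replicate 1, and 0% to 0.809% of all genes). Without the offset the gene was Plxnc1, whose WT ratio is a lower bound. With genotype as a random block over the 4 arrays, which counts the exchanged arrays as added information (correlation 0.698), 19 of 40 passed (24.7% of all genes). In the fit without the block, 13 had an unadjusted p under 0.05 with 2-fold (1475 of 14088 genes). No paired analysis was possible because the replicate numbers mark dye orientation and the genotype comparisons come from no test. Calls that fell below 2-fold when all probes were averaged were Nrp1, Plxna3, Sema3e and Sema5a for density in WT, Efna5 and Plxna3 in KO, Efna5, Nrp1 and Sema3e for the difference, Plxna4 and Sema4c at low density, and Efna5, Ephb2 and Plxnc1 at high density. Without replicate 2 of WT, Nrp1 (-0.92) and Sema3e (-0.90) for density and Nrp1 (0.96) for the difference fell below 2-fold, as did Sema7a (0.92) for the difference without replicate 2 of KO, Nrp2 (0.94) and Plxna4 (0.96) at low and Ephb2 (0.94) at high density without replicate 2, and Sema7a (-0.91) at high density without replicate 1. After median centring Nrp2 in WT (0.87) and Efna5 in KO (0.91) did so, Plxna4 at low density did so with quantile normalization of all channels (0.98), and without scaling between arrays Plxnb1, Sema4c and Sema5a at low and Efna5 and Sema7a at high density. With processed signals, 19 called values moved by over 1.5 times, with the Sema3c difference at 0.38 (also with the deposited ratios), the Epha3 difference at 1.24, the Sema4f difference at 3.37 and Sema4f at low density at -3.59; without the offset 14 did, and with all probes averaged 10. The causes were not tested.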

Other observations

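Other guidance cues and their receptors, a list of 25 genes of which 22 were on the arrays, were read beside the group. This list too was chosen with earlier results of these data known, so its shares are descriptive only. With density 5 of 16 measured rose and 1 fell in WT (31.2% and 6.25%, beside 9.43% and 6.12% of all genes), and 6 of 15 rose and 2 fell in KO (40% and 13.3%, beside 7.17% and 3.89%), with medians of 0.45 and 0.68 beside 0.06 over all genes. Slit3, a secreted ligand of the Robo receptors, rose by 4.35 in WT and 1.66 in KO on the log2 scale, and Slit2 rose by 3.52 in KO and stood at 0.99 in WT. Robo1, their receptor, rose in both genotypes by 1.31 and 1.46, and Robo2 rose in KO by 1.72, with 1 of the 2 low-density values well above background. Flrt3, a membrane partner of Unc5 receptors, rose in WT by 2.18 and stood at -0.72 in KO. Ntng1, a membrane-anchored netrin relative, was not well above background at low density and rose by at least 2.21-fold in WT and 4.78-fold in KO. Unc5b, a netrin receptor, fell by -1.52 and -1.42, and Unc5c differed in its density response by 1.11. Between genotypes 6 of 12 differed at low density (3 higher and 3 lower in KO), 50% beside 15.7% of all genes, and 7 of 17 at high density (4 higher, 3 lower), 41.2% beside 14.6%, with Slit3 higher in KO by 4.54 and 1.85 and Unc5c lower by -2.42 and -1.31.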
